A study of Mus musculus with 20 samples.

Results

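The dexamethasone response was examined in the spinal cord arrays whose titles carry the number 4 or 5, which are 8 of the 20 arrays of the series. They comprise 2 arrays from Cx30GRko mice given dexamethasone (Dex), 2 from control mice given Dex, 2 from Cx30GRko mice given saline and 2 from control mice given saline, so that 4 Dex arrays stand against 4 saline arrays with genotype as a block. The other 12 arrays, numbered 1 to 3 in each group, share no animal with them and served as the comparison. The mice were C57BL/6J and 6 to 10 weeks old, Dex was injected intraperitoneally at 4 mg/kg, and tissue was taken 4 h later.

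Cx30GRko mice lack the glucocorticoid receptor gene Nr3c1 in cells in which Cre recombinase is driven by connexin 30, a gap junction protein of astrocytes. Cells without connexin 30 keep the receptor, so a response to Dex can also be present in Cx30GRko tissue. Titles with Tg were read as Cx30GRko and titles with wt as control, since the label for genotype gives the strain alone. The series design states 5 mice in each group and mentions no pooling. Whole tissue was measured, so fewer cells of a type and less RNA per cell cannot be told apart. Markers of neurons, oligodendrocytes and astrocytes had median signals of 7.99, 7.87 and 7.42 (log2) and Hox genes of cord level 6.31, against 4.68 over all genes and 4.64 for skeletal muscle markers.

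Dexamethasone is a synthetic ligand of the glucocorticoid receptor, a nuclear receptor held by chaperones in the cytoplasm until hormone binds. The bound receptor enters the nucleus and acts at DNA elements built from AGAACA and its reverse complement, most of them far from gene starts. Well known targets in brain and spinal cord encode a chaperone that restrains the receptor itself (Fkbp5), kinases of ion transport (Sgk1), growth brakes (Cdkn1a, Errfi1, Ddit4), metallothioneins (Mt1, Mt2) and a transcriptional repressor (Zbtb16).

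Within replicates 4 and 5, no gene passed the test for Dex against saline. Of 22180 genes, 0 (0%) had an adjusted p under 0.05 (called, in what follows) in limma's moderated test with Benjamini-Hochberg adjustment, and the smallest adjusted p was 0.197. An unadjusted p under 0.05 was found for 1956 genes, of which 1248 (5.63%) were higher and 708 (3.19%) were lower in Dex arrays. All 4 Dex arrays lay above all 4 saline arrays for 421 genes (1.9%) and below them for 320 genes (1.44%). The estimate was above 0 for 54.5% of genes, with a median of 0.04 on the log2 scale. Among genes with a mean signal above the median of all genes, tested alone, 2 had an adjusted p under 0.05, Cdkn1a (0.0303) and Ccng1 (0.0304). A fit of all 20 arrays with 1 weight per array set, chosen after the data were seen, gave 184 genes past the threshold for the same contrast (148 higher, 36 lower), among them Cdkn1a, Ccng1, Errfi1, Sesn1, S100b and Hepacam.

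Cdkn1a and Ccng1 had the smallest p-values among genes higher in Dex arrays (Tssk2, lower in Dex arrays, ranked between them), and their difference between Dex and saline arrays was of nearly the same size in both genotypes. Cdkn1a encodes p21, an inhibitor of cyclin-dependent kinases, and Ccng1 encodes cyclin G1; both are classical targets of p53, and Cdkn1a is also a target of the glucocorticoid receptor. The promoter windows of both genes, from RefSeq on build GRCm38.p6 (250 bases before to 50 bases after the annotated start, 5′ to 3′), are printed here because these genes lead the higher side of the comparison, with capitals for matches to the p53 half-site. The Cdkn1a window is chr17:29090729-29091028 on the plus strand and holds 2 matches, and the Ccng1 window is chr11:40755237-40755536 on the minus strand and holds 1 match.
Cdkn1a: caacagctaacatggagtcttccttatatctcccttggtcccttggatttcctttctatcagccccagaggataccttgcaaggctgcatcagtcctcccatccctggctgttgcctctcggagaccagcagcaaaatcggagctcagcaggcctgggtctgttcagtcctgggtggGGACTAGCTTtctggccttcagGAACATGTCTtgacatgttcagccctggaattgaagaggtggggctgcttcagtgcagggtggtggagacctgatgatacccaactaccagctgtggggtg
Ccng1: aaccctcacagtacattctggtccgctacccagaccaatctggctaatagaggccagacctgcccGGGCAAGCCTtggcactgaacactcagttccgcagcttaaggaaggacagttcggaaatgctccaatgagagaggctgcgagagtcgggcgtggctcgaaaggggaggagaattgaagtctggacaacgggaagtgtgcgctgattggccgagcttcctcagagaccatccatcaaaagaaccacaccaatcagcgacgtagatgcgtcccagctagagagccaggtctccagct

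The p53 half-site was found on either strand in 8.36% of 32851 RefSeq promoter windows of this length. A second annotated Cdkn1a start on the same chromosome had no match in its window. Neither printed window holds AGAACA, the receptor's half-site, in either orientation, nor its full palindrome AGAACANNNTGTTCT. AGAACA occurred in 18.97% of the windows and the palindrome in 0.01%. Among the 12 genes with the smallest p on the higher side, 8 had a promoter window, of which 2, the Cdkn1a and Ccng1 windows themselves, held a p53 half-site and 1 held AGAACA. Among the 50 genes of smallest p on that side, 39 had a window, of which 5 (12.82%) held a p53 half-site and 8 (20.51%) held AGAACA. Over all measured genes with a window, 8.71% held a p53 half-site and 18.81% held AGAACA. These matches describe letters in a window and say nothing of binding.

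Cdkn1a signal (log2) was 8.69 and 9.20 in the Cx30GRko Dex arrays, 8.66 and 8.69 in the control Dex arrays, 6.03 and 6.76 in the Cx30GRko saline arrays, and 5.60 and 6.62 in the control saline arrays. All Dex arrays lay above all saline arrays. The Dex arrays averaged 8.81 ± 0.26 and the saline arrays 6.25 ± 0.54 (SD, n = 4 each), a difference of 2.56 ± 0.28 on the log2 scale (standard error), or 5.89-fold, with an adjusted p of 0.197 in limma. Within genotype the difference was 2.55 in Cx30GRko mice and 2.57 in control mice.

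Ccng1 signal was 8.89 and 9.77 in the Cx30GRko Dex arrays, 8.80 and 8.28 in the control Dex arrays, 6.51 and 7.38 in the Cx30GRko saline arrays, and 5.48 and 6.23 in the control saline arrays. Again no Dex array fell within the range of the saline arrays. The means were 8.94 ± 0.62 for Dex and 6.40 ± 0.78 for saline (SD, n = 4 each), a difference of 2.54 ± 0.31 (5.8-fold; limma adjusted p = 0.197). In replicates 1 to 3 both genes passed the test with smaller differences, 1.29 ± 0.11 for Cdkn1a (limma adjusted p = 0.000133) and 0.79 ± 0.13 for Ccng1 (limma adjusted p = 0.0182).

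The excess in replicates 4 and 5 over replicates 1 to 3 was itself tested in a fit of all 20 arrays. It was 1.27 ± 0.28 for Cdkn1a (limma adjusted p = 0.0253) and 1.75 ± 0.31 for Ccng1 (limma adjusted p = 0.00821). With 1 weight per array set, which allows for the wider spread of replicates 4 and 5, the limma adjusted p was 0.0941 for Cdkn1a and 0.0484 for Ccng1. Both genes stand out in replicates 4 and 5, whose estimates enter this test.

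The p53 and growth arrest list, to which both genes belong, held 23 measured genes with a median Dex effect of 0.25 in replicates 4 and 5, beside 0.04 over all genes. None passed the test after adjustment, 16 were above 0 (54.5% over all genes) and 5 had an unadjusted p under 0.05, all higher (5.63% over all genes). The others of these 5 were Sesn1, a stress-induced inhibitor of growth signalling (1.46 ± 0.29), Gadd45b, a stress sensor (1.12 ± 0.37), and Ei24 (1.02 ± 0.40). Sesn1 read 7.16 and 6.69 in the Cx30GRko Dex arrays, 6.68 and 5.61 in the control Dex arrays, 5.52 and 4.99 in the Cx30GRko saline arrays and 5.02 and 4.78 in the control saline arrays. Its lowest Dex array, control Dex replicate 5, lay just above its highest saline array. By genotype the median of the list was 0.51 in Cx30GRko mice and 0.03 in control mice, and it was 0.04 in replicates 1 to 3.

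**Figure D1:**
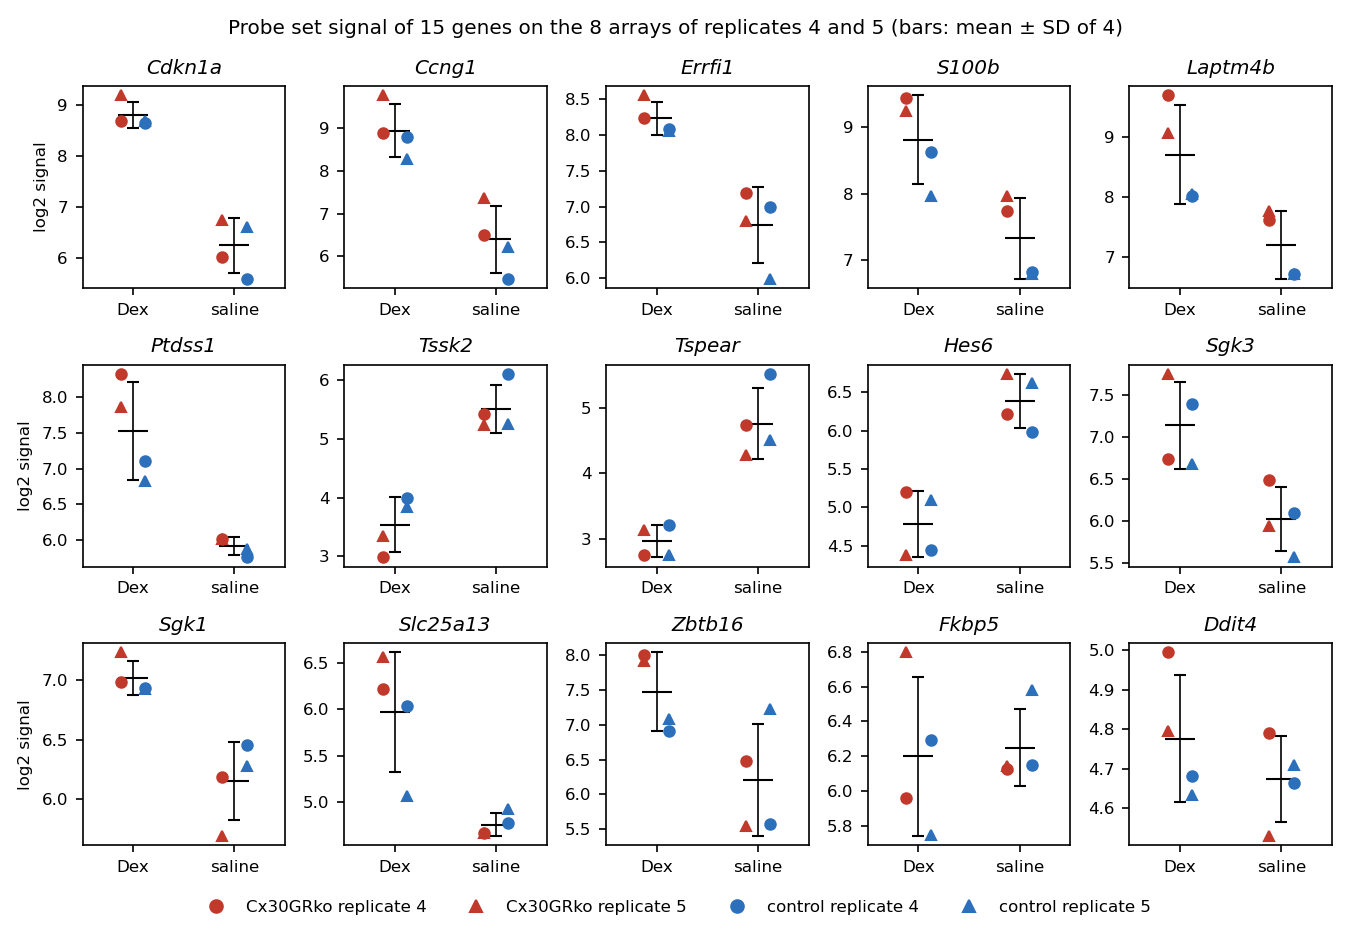
Log2 signal (y axis) of 15 genes on the 8 arrays of replicates 4 and 5, Dex left of saline; red points are Cx30GRko and blue points control mice, circles replicate 4 and triangles replicate 5, and black bars give the mean ± SD of 4 arrays. Cdkn1a and Ccng1 separate Dex from saline by 2.56 and 2.54, Tssk2 lies lower in each Dex array than in each saline array, and Fkbp5 and Ddit4 overlap.

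The next question was how the established targets of the receptor behaved. The target list held 40 genes, all measured. In replicates 4 and 5 their median Dex effect was 0.35, 30 were above 0, 10 had an unadjusted p under 0.05 and all of these were higher, and 6 showed no overlap between Dex and saline arrays, all higher. Over all genes these shares were 54.5%, 5.63% higher and 1.9% higher without overlap, and the median was 0.04. None of the 40 passed the test after adjustment. In replicates 1 to 3 the median was 0.63 and 20 of the 40 rose (adjusted p under 0.05), against 0.46% of all genes called there in either direction. Within replicates 4 and 5 the median was 0.33 in Cx30GRko mice and 0.21 in control mice. On the mean of the list per array, the Dex arrays read 6.15 and 6.32 (Cx30GRko) and 6.12 and 5.95 (control), and the saline arrays 5.62 and 5.76 (Cx30GRko) and 5.74 and 5.74 (control). All 4 Dex arrays were thus higher than all 4 saline arrays on that mean.

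Some genes had much the same size of effect in both sets of arrays. Sgk1 and Zbtb16 belong to the target list, whereas Sgk3 and Slc25a13 do not. Each was called in replicates 1 to 3 and was chosen with earlier results of these data known. Sgk1, a kinase that activates sodium channels and transporters, read 6.98 and 7.24 in the Cx30GRko Dex arrays, 6.94 and 6.93 in the control Dex arrays, 6.19 and 5.69 in the Cx30GRko saline arrays and 6.45 and 6.28 in the control saline arrays. Its groups did not overlap, and its effect was 0.87 ± 0.22 here (limma adjusted p = 0.379) beside 1.10 ± 0.17 in replicates 1 to 3 (limma adjusted p = 0.0124). Sgk3, a related kinase, had 6.74 and 7.76 in the Cx30GRko Dex arrays, 7.39 and 6.67 in the control Dex arrays, 6.48 and 5.94 in the Cx30GRko saline arrays and 6.09 and 5.56 in the control saline arrays. The difference of 1.12 ± 0.30 (limma adjusted p = 0.398) stands beside 1.28 ± 0.11 in replicates 1 to 3, with no overlap between the groups.

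Slc25a13, a mitochondrial aspartate and glutamate carrier, read 6.22 and 6.57 in the Cx30GRko Dex arrays, 6.03 and 5.06 in the control Dex arrays, 4.67 and 4.66 in the Cx30GRko saline arrays and 4.77 and 4.92 in the control saline arrays. The saline arrays were close together and control Dex replicate 5 lay just above them. The effect was 1.21 ± 0.30, beside 1.48 ± 0.18 in replicates 1 to 3. Zbtb16 read 8.01 and 7.92 in the Cx30GRko Dex arrays, 6.91 and 7.08 in the control Dex arrays, 6.48 and 5.54 in the Cx30GRko saline arrays and 5.58 and 7.23 in the control saline arrays, so control saline replicate 5 exceeded both control Dex arrays. Its effect was 1.27 ± 0.43, beside 1.14 ± 0.12 in replicates 1 to 3. For Sgk1, Sgk3, Slc25a13 and Zbtb16 the difference between the array sets had limma adjusted p-values from 0.762 to 0.909. The estimates of that difference lay between -0.27 ± 0.32 for Slc25a13 and 0.13 ± 0.35 for Zbtb16.

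Errfi1, an inhibitor of the epidermal growth factor receptor, and the metallothionein Mt2 had larger estimates here. Errfi1 read 8.24 and 8.55 in the Cx30GRko Dex arrays, 8.08 and 8.05 in the control Dex arrays, 7.19 and 6.79 in the Cx30GRko saline arrays and 7.0 and 5.99 in the control saline arrays. Its 4 Dex arrays were tightly grouped above the saline arrays, with an effect of 1.49 ± 0.25 (limma adjusted p = 0.287) beside 0.71 ± 0.07 in replicates 1 to 3. Mt2 read 9.41 and 9.06 in the Cx30GRko Dex arrays, 9.43 and 9.20 in the control Dex arrays, 8.25 and 7.63 in the Cx30GRko saline arrays and 8.54 and 8.43 in the control saline arrays, again without overlap, with an effect of 1.06 ± 0.22 beside 0.54 ± 0.09. The difference between array sets missed the threshold for both genes (limma adjusted p = 0.0877 for Errfi1 and 0.228 for Mt2).

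A pair of classical targets, Fkbp5 and Ddit4, had estimates near 0 in replicates 4 and 5, below those in replicates 1 to 3. The difference between array sets passed the test in the unweighted fit and missed the threshold with 1 weight per array set. Fkbp5 read 5.96 and 6.80 in the Cx30GRko Dex arrays, 6.29 and 5.75 in the control Dex arrays, 6.13 and 6.14 in the Cx30GRko saline arrays and 6.15 and 6.58 in the control saline arrays. The highest and the lowest values were both in Dex arrays, and the effect was -0.05 ± 0.27, beside 1.18 ± 0.11 in replicates 1 to 3 (limma adjusted p = 0.000432). Ddit4, an inhibitor of mTOR signalling, read 4.99 and 4.79 in the Cx30GRko Dex arrays, 4.68 and 4.63 in the control Dex arrays, 4.79 and 4.53 in the Cx30GRko saline arrays and 4.66 and 4.71 in the control saline arrays. The 8 values lay within a narrow range and the groups overlapped; the effect was 0.10 ± 0.18, beside 1.32 ± 0.11 in replicates 1 to 3 (limma adjusted p = 0.000116).

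The difference between array sets was -1.23 ± 0.26 for Fkbp5 (limma adjusted p = 0.0213) and -1.22 ± 0.19 for Ddit4 (limma adjusted p = 0.00546). With 1 weight per array set the adjusted p was 0.107 for Fkbp5 and 0.0665 for Ddit4. Setdb2, a histone methyltransferase with the largest estimate among the 10 genes of smallest p in replicates 1 to 3 (1.85 ± 0.16), had 0.39 ± 0.41 in replicates 4 and 5, with Dex arrays from 5.61 to 7.24 and saline arrays from 5.15 to 6.50. Its set difference of -1.46 ± 0.40 had a limma adjusted p of 0.0671. Per1, the clock gene with a known receptor element, differed by 0.55 ± 0.33 and Tsc22d3, which encodes the glucocorticoid-induced leucine zipper, by 0.17 ± 0.19. Their estimates in replicates 1 to 3 were 0.44 for each. Arrdc2, Plin4, Dclre1b and Hif3a had 0.65, 0.33, 0.01 and 0.58 in replicates 4 and 5. In replicates 1 to 3 they had 1.43, 1.35, 0.97 and 1.50.

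Across all 79 genes that rose in replicates 1 to 3, 55 had an estimate on the same side in replicates 4 and 5, 17 of them with an unadjusted p under 0.05 and 10 without overlap between Dex and saline arrays, where the shares on that side over all genes were 54.5%, 5.63% and 1.9%. The median effect over the 79 was 0.17 in replicates 4 and 5 and 0.70 in replicates 1 to 3; these genes were selected in replicates 1 to 3, so the value there is a description. Within replicates 4 and 5 it was 0.22 in Cx30GRko mice and 0.15 in control mice. The 10 genes without overlap were Cdkn1a, Ccng1, Errfi1, Mt2, Slc25a13, Sgk1, Sgk3, Nt5c3, Rab31 and Pnpla2, of which Nt5c3 and Rab31 were chosen for naming after their values were seen. The effects of these 2 were 0.95 for Nt5c3, a pyrimidine nucleotidase, and 0.85 for Rab31, a small GTPase of membrane traffic. Pnpla2, the triglyceride lipase of lipid droplets, had 0.51 ± 0.20.

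Of the 23 genes that fell in replicates 1 to 3, 10 had an estimate below 0 in replicates 4 and 5, none had an unadjusted p under 0.05 on that side (3.19% over all genes), and the median was 0.07 beside -0.62. Among them Gbp11, an interferon-induced GTPase, had -0.68 ± 0.31, and Fbxo32, a muscle ubiquitin ligase, had -0.47 ± 0.26. Trim59 read 7.38 and 5.61 in the Cx30GRko Dex arrays, 5.32 and 6.61 in the control Dex arrays, 5.35 and 6.42 in the Cx30GRko saline arrays and 5.91 and 6.13 in the control saline arrays. The paired arrays of a group differed by more than 1 in every group but control saline, and Dex and saline arrays overlapped (0.28 ± 0.46, beside -1.33 in replicates 1 to 3).

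**Figure D2:**
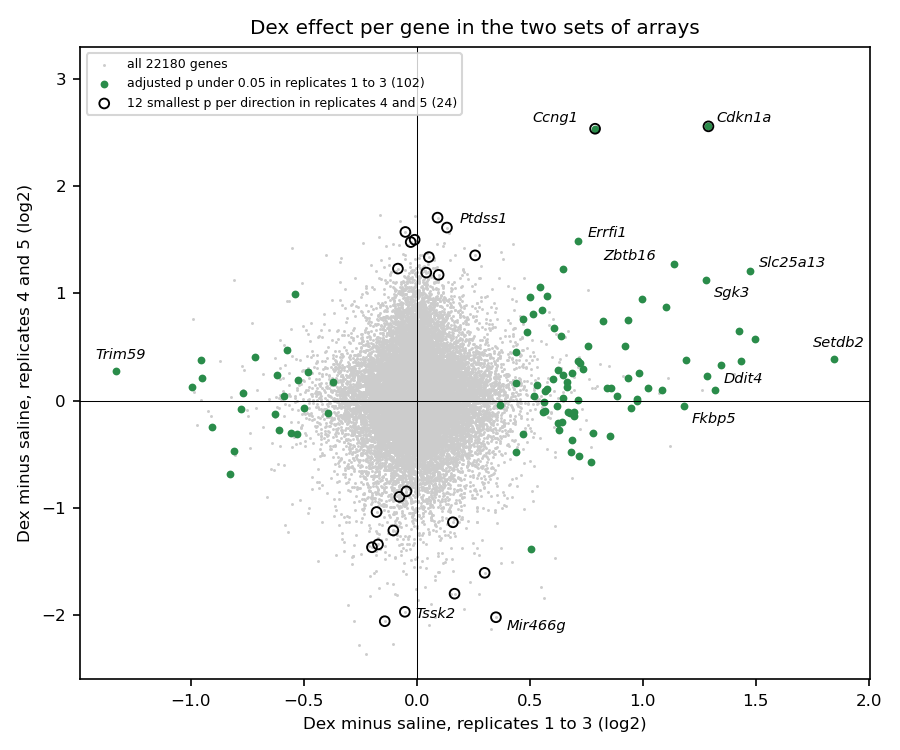
Dex minus saline (log2) per gene in replicates 4 and 5 (y axis) against the same in replicates 1 to 3 (x axis); grey points are all 22180 genes, green points the 102 called in replicates 1 to 3 and open circles the 12 genes of smallest p in each direction in replicates 4 and 5 (24 in all). Cdkn1a and Ccng1 are high on both axes, Fkbp5 and Ddit4 lie near 0 on the y axis, and most open circles lie near 0 on the x axis.

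In the other direction of comparison, most genes with the smallest p in replicates 4 and 5 had estimates near 0 in replicates 1 to 3. For the 50 genes of smallest p on the higher side the median was 1.23 here and 0.04 there, with 34 on the same side and 3 called. For the 50 on the lower side it was -1.26 here and -0.05 there, with 26 on the same side and 0 called (limma, in replicates 1 to 3). The estimates in replicates 4 and 5 chose these genes and are given as a description.

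The 12 genes of smallest p on the higher side were Cdkn1a, Ccng1, Laptm4b, S100b, Mpp1, Ptdss1, Pxk, Rgs4, Add3, Arid5b, Hepacam and Arid2, with estimates from 1.17 to 2.56 and limma adjusted p of 0.197 for the first pair and 0.287 for the others. In 11 of the 12 the groups did not overlap. Ptdss1, an enzyme of phosphatidylserine synthesis, read 8.33 and 7.86 in the Cx30GRko Dex arrays, 7.10 and 6.82 in the control Dex arrays, 6.01 and 6.01 in the Cx30GRko saline arrays and 5.76 and 5.87 in the control saline arrays. The saline arrays were nearly equal and the Cx30GRko Dex arrays the highest, with an effect of 1.61 ± 0.25. Laptm4b, a lysosomal membrane protein, read 9.70 and 9.06 in the Cx30GRko Dex arrays, 8.02 and 8.05 in the control Dex arrays, 7.62 and 7.77 in the Cx30GRko saline arrays and 6.73 and 6.72 in the control saline arrays, with an effect of 1.50 ± 0.21 and higher values in Cx30GRko than in control arrays under either treatment.

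S100b and Hepacam are both astrocyte markers, a calcium-binding protein and an adhesion protein of astrocyte processes. S100b read 9.43 and 9.23 in the Cx30GRko Dex arrays, 8.62 and 7.96 in the control Dex arrays, 7.73 and 7.97 in the Cx30GRko saline arrays and 6.83 and 6.79 in the control saline arrays. Control Dex replicate 5 fell at the level of Cx30GRko saline replicate 5, whereas within each genotype Dex and saline arrays were apart (1.48 in each genotype). Hepacam read 8.84 and 8.36 in the Cx30GRko Dex arrays, 8.23 and 8.05 in the control Dex arrays, 7.44 and 7.32 in the Cx30GRko saline arrays and 7.19 and 6.75 in the control saline arrays, without overlap and with an effect of 1.19 ± 0.20.

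The estimates in replicates 1 to 3 were -0.03 ± 0.11 for S100b and 0.04 ± 0.07 for Hepacam. The test of the difference between array sets gave 1.51 ± 0.22 for S100b (limma adjusted p = 0.00371, and 0.0449 with 1 weight per set). For Hepacam it gave 1.15 ± 0.19 (limma adjusted p = 0.00628, and 0.0449 with 1 weight per set). All 12 of these genes passed that test and 9 passed it with the weights. The estimates that chose them enter the test, so these p-values and counts are a description.

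The 12 genes of smallest p on the lower side were Tssk2, Tspear, Olfr968, Hes6, Smim10l2a, Mir466g, Defb3, Mapk12, Nr6a1, Fam240a, Col3a1 and Krtap4-8, with estimates from -2.06 to -0.85. Several are genes of other tissues, such as a testis kinase (Tssk2), an odorant receptor (Olfr968), a defensin (Defb3) and a hair keratin-associated protein (Krtap4-8). Tssk2 read 2.98 and 3.33 in the Cx30GRko Dex arrays, 4.00 and 3.84 in the control Dex arrays, 5.42 and 5.24 in the Cx30GRko saline arrays and 6.11 and 5.26 in the control saline arrays. The groups were apart by more than 1, with an effect of -1.97 ± 0.24 (limma adjusted p = 0.197) beside -0.05 ± 0.14 in replicates 1 to 3.

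Hes6, a transcriptional regulator of neuronal differentiation, read 5.20 and 4.38 in the Cx30GRko Dex arrays, 4.44 and 5.10 in the control Dex arrays, 6.22 and 6.74 in the Cx30GRko saline arrays and 5.98 and 6.62 in the control saline arrays. It was lower in each Dex array than in each saline array, by 1.61 ± 0.28 in the mean, whereas its estimate in replicates 1 to 3 was 0.30. Col3a1, a fibrillar collagen of the meninges and vessel walls, was likewise lower in all 4 Dex arrays, which read 4.46 to 5.34, against 5.55 to 6.04 in the saline arrays (-0.90 ± 0.17). Mir466g, a microRNA gene measured by a whole-transcript probe set that need not report the mature microRNA, read 1.63 to 2.81 in Dex arrays and 3.34 to 4.70 in saline arrays (-2.02 ± 0.36). Of the 12 genes on the lower side 8 passed the test of the difference between array sets, 3 of them with the weights as well. They too were chosen by estimates that enter the test, so these counts are a description.

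Over all genes, the difference between array sets was called for 479 of 22180 genes (2.16%), 329 with a higher and 150 with a lower Dex effect in replicates 4 and 5. With 1 weight per array set it was called for 50 genes (0.225%), all among the 479. In control mice alone it was called for 3 genes (Sgta, Mzb1 and Sprr1a). That fit leaves out every Cx30GRko array, Dex and saline, of both sets and so rests on fewer arrays. Leaving out 1 array of replicates 4 and 5 gave 459 to 1574 genes, the most without Cx30GRko Dex replicate 5, and also more than 1.5 times the count without replicate 5 of the other groups or control saline replicate 4. The sets differed in spread. Residual SDs had a median over genes of 0.39 in replicates 4 and 5 and 0.21 in replicates 1 to 3, and the fitted weights were 0.424 and 1.77. Beside the genes already named, the smallest p-values on the higher side included Ndufc2, a subunit of respiratory complex I (1.19), and Bckdhb, a subunit of the branched-chain keto acid dehydrogenase (1.37). On the lower side they included Ppfia1, a scaffold protein of the liprin family (-1.58), and Tspan32, a tetraspanin (-1.36).

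The next comparison was by genotype. Within replicates 4 and 5 neither genotype alone gave a gene with an adjusted p under 0.05 in limma. At an unadjusted p under 0.05 there were 2917 genes in Cx30GRko mice (1866 higher, 1051 lower under Dex) and 1030 in control mice (557 higher, 473 lower). The SD of the estimates over genes was 0.63 in Cx30GRko mice and 0.46 in control mice. The Cx30GRko Dex arrays also had the widest spread of signals over probe sets. Their SDs were 1.95 and 1.81, against 1.66 to 1.71 on the other arrays of replicates 4 and 5. How far that spread enters these counts was not tested, so they do not show a larger response in Cx30GRko mice. The test of the difference between genotypes in the Dex effect gave 0 genes past the threshold in limma, 1636 at an unadjusted p below 0.05 and a smallest adjusted p of 0.584. The comparison of Cx30GRko with control mice across treatments also gave 0 in limma, and 2541 at an unadjusted p below 0.05.

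Ndufc2, Olfr1386 and Mboat4, among the genes of smallest p in Cx30GRko mice, were set apart by the Cx30GRko Dex arrays. Ndufc2 read 8.25 and 8.10 in the Cx30GRko Dex arrays, against 6.32 to 6.33 in the control Dex arrays, 6.00 to 6.04 in the Cx30GRko saline arrays and 6.09 to 6.15 in the control saline arrays. Olfr1386 read 2.37 and 2.03 in the Cx30GRko Dex arrays, against 4.07 to 4.60 in the control Dex arrays, 5.20 to 5.49 in the Cx30GRko saline arrays and 4.04 to 4.24 in the control saline arrays. Mboat4, an acyltransferase that modifies ghrelin, followed the same pattern, with 2.20 and 2.61 in the Cx30GRko Dex arrays and 4.85 or more in every other array. In control mice Gadl1, an amino acid decarboxylase, had one of the smallest p-values, with 4.36 and 3.94 in the Cx30GRko Dex arrays, 5.81 and 5.81 in the control Dex arrays, 4.00 and 3.97 in the Cx30GRko saline arrays and 4.18 and 3.95 in the control saline arrays. Its control Dex arrays were the high ones, with a Dex difference of 1.75 in control mice and 0.17 in Cx30GRko mice.

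Nr3c1 itself, the gene targeted in Cx30GRko mice, read 7.79 and 6.62 in the Cx30GRko Dex arrays, 6.24 and 6.18 in the control Dex arrays, 6.05 and 6.07 in the Cx30GRko saline arrays and 5.40 and 6.07 in the control saline arrays. The Cx30GRko arrays were thus not lower than the control arrays; the genotype estimate was 0.66, with a limma adjusted p of 0.458. A probe set over the whole transcript need not report a deletion in some of the cells, so this does not check the labels. The Dex effect on Nr3c1 was 0.81 ± 0.30 without overlap (limma adjusted p = 0.517), beside -0.20 ± 0.09 in replicates 1 to 3. Gjb6, which encodes connexin 30, had 0.12 ± 0.30.

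Gene groups other than receptor targets were described by their median Dex effect and by counts at an unadjusted p under 0.05, beside 0.04 and the background shares given above; no member of any list passed the test after adjustment. The 25 astrocyte markers had a median of 0.48, 23 of 25 were above 0 and 8 had an unadjusted p under 0.05, all higher. The median was 0.72 in Cx30GRko mice, 0.10 in control mice and 0.05 in replicates 1 to 3. On the mean of the list per array, the Cx30GRko Dex arrays read 8.13 and 7.78, the control Dex arrays 7.37 and 7.15, the Cx30GRko saline arrays 7.12 and 7.12 and the control saline arrays 7.02 and 7.18. The Cx30GRko Dex arrays were the highest and the control Dex arrays overlapped the saline arrays.

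The 14 genes of glutamate, potassium and water handling, tasks of astrocytes at synapses, had a median of 0.52 and all 14 were above 0, with 5 at an unadjusted p under 0.05. By genotype the median was 0.87 in Cx30GRko mice and 0.16 in control mice. The median signal of the list was 7.16, in the decile of genes just below the brightest. In that decile the median Dex effect was 0.15, and 281 of 2218 genes were higher at an unadjusted p under 0.05. Several members, such as Aqp4 and Slc4a4, are also among the astrocyte markers, so the lists are not separate observations. Glul, the glutamine synthetase that clears glutamate, read 9.92 and 9.57 in the Cx30GRko Dex arrays, 9.55 and 9.38 in the control Dex arrays, 9.35 and 9.14 in the Cx30GRko saline arrays and 8.82 and 8.85 in the control saline arrays. It was higher in every Dex array, by 0.56 ± 0.18. Kcnj10, the inward rectifier potassium channel of astrocytes, had 0.76 ± 0.29, and Slc4a4, a bicarbonate transporter, had 0.73 ± 0.29.

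Markers of neurons and oligodendrocytes and genes of core metabolism also had medians above 0. The median signals of the neuron, oligodendrocyte and respiratory chain lists lay in the brightest decile of genes. In that decile the median Dex effect was 0.27, and 446 of 2218 genes were higher at an unadjusted p under 0.05 in limma. The 22 neuron markers had a median of 0.37, with 8 of 22 at an unadjusted p under 0.05 and all of these higher, led by the glycine transporter Slc6a5 (1.20 ± 0.26) and the nuclear protein Rbfox3 (1.11 ± 0.28). The 17 oligodendrocyte markers had a median of 0.28 with 6 at that level, led by the myelin protein Mal (0.97 ± 0.19). The 22 genes of the mitochondrial respiratory chain had 0.39 with 4, and the 18 genes of cholesterol synthesis had 0.40, with 4 higher, such as Cyp51 (0.86 ± 0.30), and 1 lower, Mvd (-0.72 ± 0.26). In replicates 1 to 3 the medians of these 4 lists lay between -0.04 and 0.00. Markers of 3 other cell types of the cord had medians below 0, at -0.14 for ependymal cells (3 of 12 above 0), -0.09 for meningeal fibroblasts (5 of 14) and -0.07 for mural cells (5 of 14), while endothelial markers had 0.11 (15 of 22) and oligodendrocyte precursor markers 0.07 (8 of 12).

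Lists of immune and inflammatory genes had medians from -0.29 to 0.12. The 17 markers of neutrophils and blood monocytes had a median of -0.29, with 3 at an unadjusted p under 0.05 and all lower. The 13 lymphocyte markers had -0.13, with 1 higher and 1 lower at that level. The 3 lower neutrophil and monocyte genes were the granule genes Ltf (-0.82 ± 0.29), Elane (-0.52 ± 0.20) and Mpo (-0.64 ± 0.25). The 19 microglia markers had a median of 0.12, and 14 of the 19 were above 0. Tyrobp, an adaptor of immune receptors, was the single member at that level and went against the direction of most of the list. It read 3.66 and 4.33 in the Cx30GRko Dex arrays, 4.10 and 4.41 in the control Dex arrays, 4.75 and 4.79 in the Cx30GRko saline arrays and 5.37 and 4.96 in the control saline arrays, so it was lower in every Dex array (-0.84 ± 0.22). NF-kB and inflammatory genes had -0.01 and interferon-stimulated genes 0.03. Outside these lists, the 16 immediate early genes had -0.20 with none at that level and reactive astrocyte genes had -0.03.

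**Figure D3:**
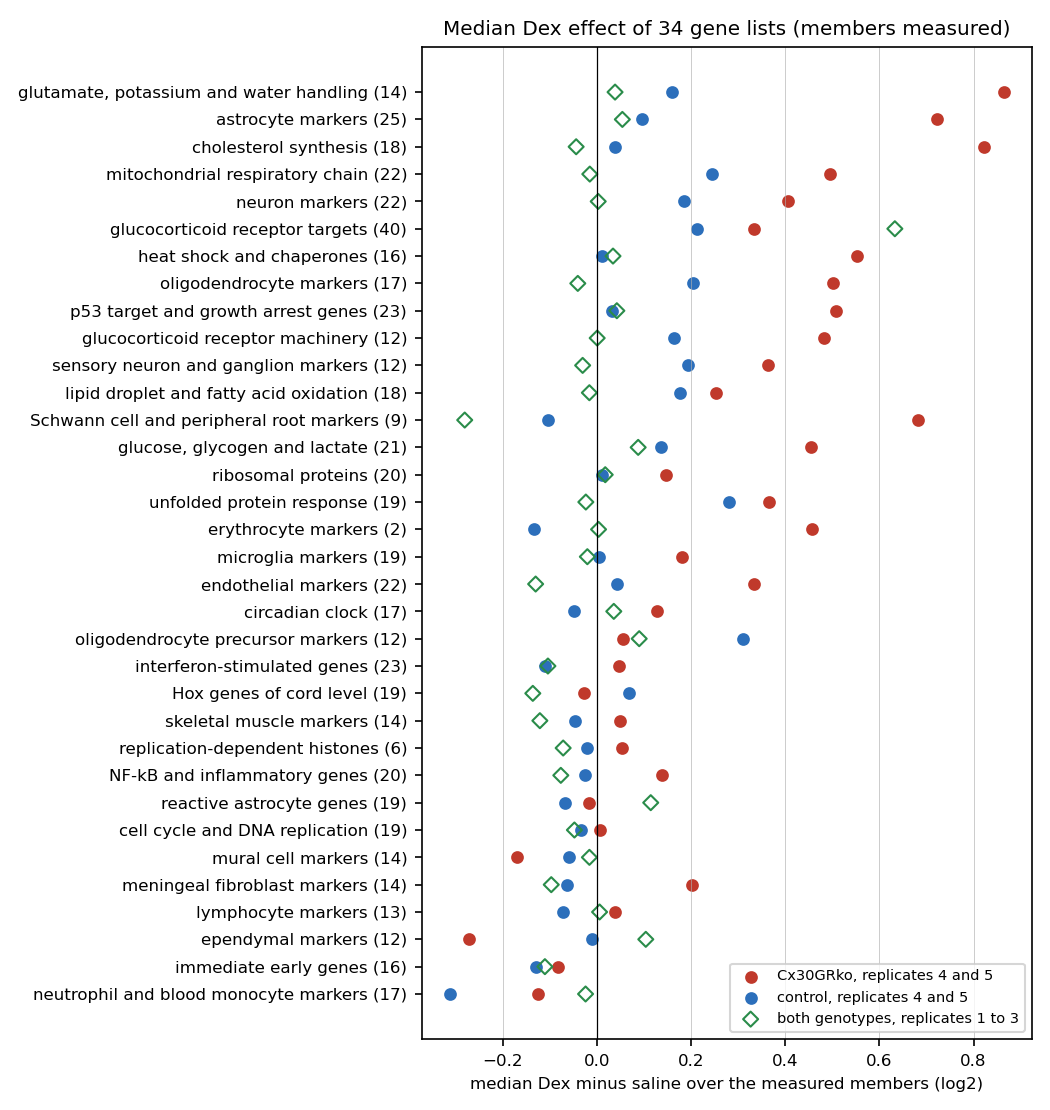
Median Dex minus saline (log2, x axis) over the measured members of 34 gene lists (y axis, number measured in brackets) in Cx30GRko mice of replicates 4 and 5 (red), control mice of replicates 4 and 5 (blue) and both genotypes of replicates 1 to 3 (green diamonds). Receptor targets stand apart in replicates 1 to 3, at 0.63, whereas in replicates 4 and 5 the red points of glutamate handling, cholesterol synthesis and astrocyte markers lie furthest right, at 0.87, 0.82 and 0.72.

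The Dex estimates varied with signal level. Over deciles of mean signal, the median Dex effect in the brightest decile was 0.46 in Cx30GRko mice, 0.11 in control mice and -0.01 in replicates 1 to 3, and in the dimmest it was -0.01 in Cx30GRko mice, -0.02 in control mice and 0.00 in replicates 1 to 3. In the brightest decile 446 of 2218 genes were higher and 19 lower at an unadjusted p under 0.05, and the median over both genotypes was 0.27. The astrocyte, neuron, oligodendrocyte and respiratory chain lists had their median signals in that decile. For them 0.27 is a closer background than the median over all genes. The neutrophil markers had a median signal of 3.33. Sensory neuron and ganglion markers, with a median signal of 4.52 beside 4.68 over all genes, had a median Dex effect of 0.24 (8 of 12 above 0). The SD of signals over probe sets was 1.95 and 1.81 on the Cx30GRko Dex arrays, and 1.66 to 1.71 on the other 6 arrays of replicates 4 and 5. The list medians were also computed with each array scaled to the same SD, after repeated quantile normalization and after cyclic loess.

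Under these 3 settings the median ranged from 0.23 to 0.30 for astrocyte markers, 0.29 to 0.31 for glutamate, potassium and water handling, and 0.19 to 0.24 for cholesterol synthesis. It ranged from 0.13 to 0.20 for the respiratory chain, 0.12 to 0.21 for neuron markers and -0.01 to 0.08 for oligodendrocyte markers. Receptor targets had 0.31 to 0.34 and p53 and growth arrest genes 0.25 to 0.31. Without both Cx30GRko Dex arrays, the fit with genotype as a block takes the Dex effect from control mice alone. Its medians are therefore those of control mice. They were 0.10 for astrocyte markers, 0.16 for glutamate, potassium and water handling, 0.04 for cholesterol synthesis and 0.24 for the respiratory chain. They were 0.18 for neuron markers, 0.20 for oligodendrocyte markers, 0.21 for receptor targets and 0.03 for p53 and growth arrest genes. Of the genes at an unadjusted p under 0.05, 63.8% were higher in the deposited values, 57.2% after quantile normalization, 55.6% after scaling and 51.5% after cyclic loess.

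**Figure D4:**
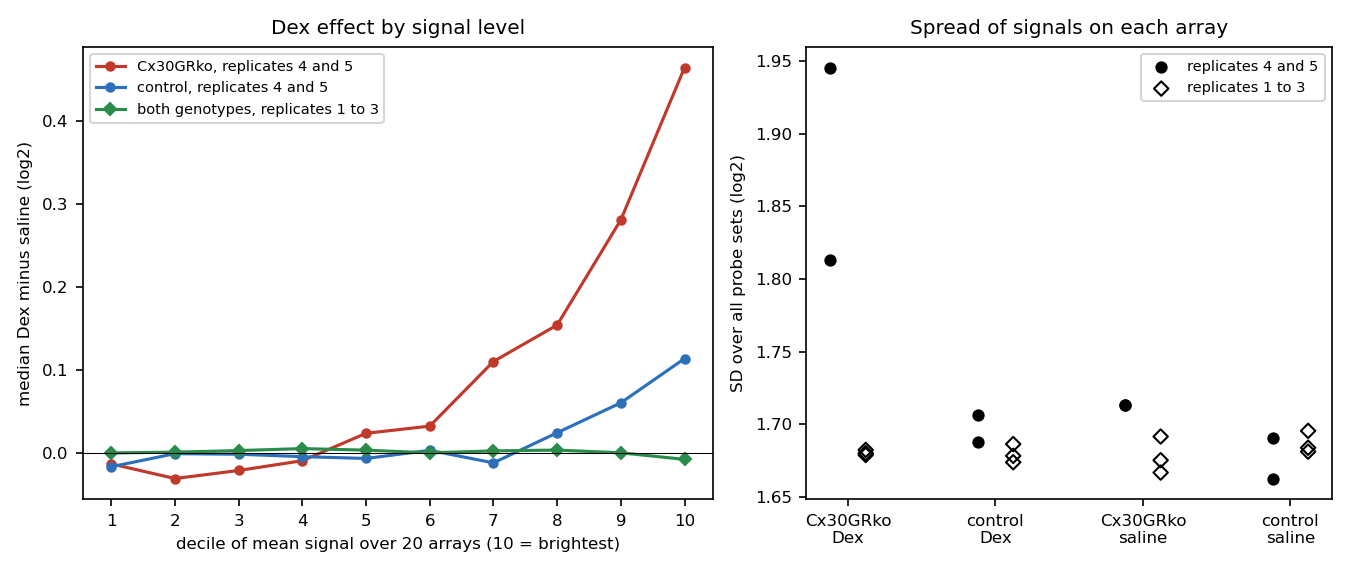
Left, median Dex minus saline (log2, y axis) of genes grouped by decile of mean signal (x axis) in Cx30GRko and control mice of replicates 4 and 5 and in replicates 1 to 3; right, the SD of log2 signals over probe sets (y axis) of each array by group, with filled points for replicates 4 and 5 and open diamonds for replicates 1 to 3. The red line reaches 0.46 in the brightest decile while the green line stays near 0, and the 2 Cx30GRko Dex arrays of replicates 4 and 5 have SDs of 1.95 and 1.81.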

How the data were processed

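RNA of mouse spinal cord was measured on Affymetrix whole-transcript arrays, 1 array per mouse. The authors deposited 1 table of log2 probe set signals. The submitters' processing notes name the tool oligo; its version, the normalization, the genome build and the annotation are not given in the sources used here. All arrays had a mean of 4.64. For each probe set the means over replicates 4 and 5 and over replicates 1 to 3 were equal (largest difference 4.5e-09), so levels had been centred within 2 array sets that the labels do not mention. Only differences within a set were used.

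Of 41345 probe sets, 23521 had 1 gene symbol, 1814 several and 16010 none, by the platform's annotation, which can be old. Each of 22180 genes was represented by its brightest probe set (mean of the 20 arrays), with no filter on dim probe sets. The number of arrays limits the precision. Differences were fitted with limma 3.58.1 in R 4.3.3 (two-sided; Benjamini-Hochberg over all genes, threshold 0.05). The 8 arrays had 5 residual degrees of freedom with genotype as a block and 4 with group means; replicates 1 to 3 had 9, and the fit of 20 arrays used for the difference between array sets had 12. Within replicates 4 and 5, residuals of arrays with the same number correlated between -0.08 and 0.09 across groups, so no strong shared signal by number was seen. This cannot exclude that mice of the same number were handled together, and replicates 1 to 3 were not checked this way.

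The arrays, the 34 gene lists (586 of 649 members measured) and a fixed set of genes to examine were chosen with earlier results of these data known. The text names the 12 smallest p per direction, 10 per direction for the difference between sets and the 10 smallest in replicates 1 to 3. Of the 6 smallest per direction within genotype, of the fixed set and of up to 5 members per list, it names only some. Alternatives covered blocks, weights, normalization, filters, probe set choice and leaving out arrays.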

Additional observations from a re-analysis of the deposited data

Results flagged for a closer look

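Among 84 groups of 4 arrays (Dex or saline) of the genes examined for a single outlying array, 6 held one; chance gives about 1 in 20 such groups. Under Dex these were Cdkn1a (9.20), Sgk1 (7.24) and Arrdc2 (6.44), each highest in Cx30GRko Dex replicate 5. Under saline they were Gjb6 (6.77 in Cx30GRko saline replicate 4), Fkbp5 (6.58 in control saline replicate 5) and Nr3c1 (5.40, the lowest, in control saline replicate 4).

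The limma test of the difference between array sets in the Dex effect chose the 10 genes of smallest p in each direction. That they passed it is therefore a description. For these genes the estimated Dex effect differed between replicates 4 and 5 and replicates 1 to 3. It was larger in replicates 4 and 5 for Ptdss1 by 1.48, Laptm4b by 1.51, Ndufc2 by 1.19, Mpp1 by 1.62, Arid2 by 1.31, S100b by 1.51, Add3 by 1.29, Gm7138 by 1.30, Pxk by 1.62 and Bckdhb by 1.37. It was lower, with differences of -1.92 for Olfr968, -2.37 for Mir466g, -1.92 for Tssk2, -1.58 for Ppfia1, -1.36 for Tspan32, -1.63 for Olfr1386, -1.28 for Zc3h12d, -1.89 for Pym1, -2.08 for Tcl1b3 and -1.22 for Ddit4. Pym1 had risen in replicates 1 to 3 (0.51) and had -1.39 in replicates 4 and 5, with all Dex arrays below all saline arrays. With 1 weight per array set, Ddit4 alone among these genes missed the threshold (limma adjusted p = 0.0665). In control mice alone, on fewer arrays, 19 of these genes no longer passed the test and Olfr1386 changed sign.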

How the results depend on the processing

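The count of 0 genes for the Dex effect in replicates 4 and 5 was 0 with the replicate block (smallest adjusted p 0.0859), in each fit that left out 1 array, and with the other blocks, weights per array, normalizations, probe set choices and moderation tried. It was 2 among genes above the median level, where fewer genes are tested, 1875 from the fit of all 20 arrays, which pools the spread with the less variable set, and 184 when that fit had 1 weight per array set (148 higher, 36 lower). The replicate block gave 79 genes in replicates 1 to 3, against 102 without it, and 390 for the difference between array sets, against 479. That difference was called for 50 genes with 1 weight per array set, 246 with arrays scaled to the same SD, 3 in control mice alone (Sgta, Mzb1 and Sprr1a), and 459 to 1574 when 1 array was left out, the most without Cx30GRko Dex replicate 5. It was 791 without control Dex replicate 5, 862 without Cx30GRko saline replicate 5, 727 without control saline replicate 4 and 854 without control saline replicate 5. Leaving out 1 array gave 55 to 105 genes in replicates 1 to 3, with 61 without control Dex replicate 1, 63 without Cx30GRko saline replicate 2, 55 without control saline replicate 1 and 67 without control saline replicate 2. It gave 0 to 1 for the difference between genotypes, the 1 being Ogn without Cx30GRko Dex replicate 5. Fkbp5 had 0.0039 with array weights and -0.28 to 0.12 when 1 array was left out, and Gjb6 -0.15 to 0.35. Without both Cx30GRko Dex arrays, where the estimate is that of control mice alone, Tsc22d3 had -0.091 and Ddit4 -0.030. In control mice alone the set difference of Olfr1386 was 0.33. Where a construction is not named, the cause was not tested. With 4 arrays a side, of wider spread than replicates 1 to 3, an effect that missed the threshold is not shown to be absent.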

Other observations

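The platform also measures gene families with little known activity in spinal cord. Among 1105 odorant receptor genes, 39 were lower and 8 higher at an unadjusted p under 0.05, with 25 lower and 10 higher without overlap between Dex and saline arrays; their median Dex effect was -0.03 and their median signal 2.79. Over all genes 3.19% were lower and 5.63% higher at that level, and 1.44% lower and 1.9% higher without overlap. The 39 lower genes are near the share of all genes and the 8 higher genes fall below it. The median odorant receptor signal lies in the dimmest decile, where 32 of 2218 genes were lower and 5 higher at that level. Both are smaller shares than among odorant receptor genes, some of which lie in brighter deciles. Without overlap, 40 genes of the dimmest decile were lower and 21 higher. Among 483 microRNA genes the counts were 21 lower and 14 higher, and among 289 vomeronasal receptor genes 6 lower and 4 higher. These families were chosen after the values were seen. Srebf2, the regulator of cholesterol synthesis, had a Dex difference of 0.95 in Cx30GRko mice and -1.49 in control mice, with 7.90 and 7.44 in the Cx30GRko Dex arrays, 6.35 and 6.29 in the control Dex arrays, 6.56 and 6.86 in the Cx30GRko saline arrays and 7.91 and 7.70 in the control saline arrays. The difference of 2.44 between genotypes had a limma adjusted p of 0.584.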
